A study of Homo sapiens with 9 samples.

Results

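Interferon-stimulated genes are genes whose transcription is switched on when a cell senses interferon, and 39 of them were followed here through a treatment with a copper chelator. They were taken by name from a list drawn up with earlier results of these data known, by a rule that uses no measured value, and all 39 were found among the 59453 gene names of the count table. RNA sequencing was performed on MDA-MB-231, an established human triple-negative breast cancer line, in 3 groups of 3 libraries: untreated cells, cells treated with TEPA (a copper-binding polyamine) for 8 h, and cells treated with TEPA for 24 h. No group carried a genetic change. The sample labels give 8 mM TEPA, whereas the study's own sequencing methods give a lower concentration for this line, and which was used could not be settled. One untreated group served both times, so time in culture and time under TEPA cannot be told apart. The labels do not say whether replicates were separate cultures, so p-values measure the spread between these libraries, which may be technical. In bulk RNA, fewer expressing cells and less RNA per cell cannot be told apart. The question followed was how the level of these genes after 8 h compared with their level after 24 h.

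Type I interferons bind the IFNAR1 and IFNAR2 receptor chains, and the kinases JAK1 and TYK2 then phosphorylate STAT proteins, among them STAT2, which joins IRF9 in the complex ISGF3. ISGF3 binds the interferon-stimulated response element (ISRE), a pair of GAAA repeats in the promoters of antiviral genes, while the GAS element is the usual target of signalling by interferon gamma. The proteins made sense foreign RNA, block its translation, degrade it or tag proteins with ISG15, and many tumour cells express these genes at a basal level without added interferon.

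The promoter stretches below show where the ISRE core lies in 8 members, those with the largest change at 8 h in either direction among members with a whole core before the start site. RSAD2 is ranked on a change that was not called (0.59, edgeR adjusted p = 0.375) and rests on 9 to 23 counts per library at 8 h. DTX3L changed more than 3 of the 8 (-0.59 at 8 h), but its only core runs across the start site and it is not shown. The stretches were read from the RefSeq promoter sequences (GRCh38.p14), are written 5′ to 3′ on the strand of the gene, and lie wholly before the start site of the promoter used. IFIT3 and RSAD2 have 2 listed promoters each and MX1 has 3. For these, the first listed promoter with a core before its start site is shown. Capitals mark each match to the core GAAANNGAAA on either strand, with overlapping matches run together.

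ISG20 (chr15:88638927-88638976, + strand): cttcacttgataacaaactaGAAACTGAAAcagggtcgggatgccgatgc
IFIT3 (chr10:89327821-89327904, + strand): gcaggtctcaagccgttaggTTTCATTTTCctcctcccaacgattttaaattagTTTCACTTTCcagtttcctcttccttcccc
IFIT1 (chr10:89392487-89392549, + strand): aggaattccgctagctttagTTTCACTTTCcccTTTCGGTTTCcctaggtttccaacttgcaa
IFIH1 (chr2:162318685-162318863, - strand): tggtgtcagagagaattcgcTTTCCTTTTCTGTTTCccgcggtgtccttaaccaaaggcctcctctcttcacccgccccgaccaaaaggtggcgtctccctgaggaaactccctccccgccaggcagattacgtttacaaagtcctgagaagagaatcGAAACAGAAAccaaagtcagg
IFI6 (chr1:27672256-27672368, - strand): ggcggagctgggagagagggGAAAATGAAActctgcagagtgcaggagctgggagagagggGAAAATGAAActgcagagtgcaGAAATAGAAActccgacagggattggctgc
RSAD2 (chr2:6877612-6877661, + strand): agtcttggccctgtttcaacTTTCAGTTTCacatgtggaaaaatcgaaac
MX1 (chr21:41431834-41431883, + strand): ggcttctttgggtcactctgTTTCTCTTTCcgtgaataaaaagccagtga
BST2 (chr19:17405725-17405780, - strand): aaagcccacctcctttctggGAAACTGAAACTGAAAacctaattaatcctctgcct

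A promoter window, running from 250 bases before to 50 bases after the start site, was present for 31 of the 39 members, some with several. A gene counted as holding a core if any of its windows did. The ISRE core was found in 20 of these 31 (64.5%), against 3.98% of the 11043 tested genes with a window and 4.38% of all 27305 genes in the table. Before the start site alone, 18 of the 31 (58.1%) held it. The GAS core TTCNNNGAA, searched on both strands, was found in 8 of 31 (25.8%), against 8.52% of tested genes. A match describes letters in a window and is not a bound site. Of all genes tested, 24.5% fell at 8 h and 25.7% rose at 24 h against untreated cells. Of the 20 members with an ISRE core, 16 fell at 8 h and 12 rose at 24 h. Their median log2 fold changes were -0.38 and 0.26. The members whose window held no core were STAT2, IRF1, IRF9, DDX58, OAS1, UBE2L6, HERC6, CMPK2, SAMD9L, IFI35 and XAF1, and of the 10 of these that could be tested 7 fell at 8 h and 5 rose at 24 h, with medians of -0.49 and 0.22. The windows of IRF7, DHX58, OAS2, OASL, IFIT2, USP18, MX2 and TRIM22 were not in the table.

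Libraries held 34633755 to 49342659 counts, and 16556 genes passed the filter on low counts. The line's defining genes VIM, CD44, EGFR and KRT18 were expressed in every library, with a summed level of 4692 to 6272 CPM (counts scaled to a common library size), and PGR was at 0 counts, while ERBB2 was at 51.9 to 87.1 CPM. Of 6 immune cell markers, CD3E and NKG7 were at 0 counts in all 9 libraries and PTPRC reached at most 5 counts. The summed level of the 6 was 2.96 to 5.41 CPM in untreated cells, 0.993 to 1.27 CPM at 8 h and 3.86 to 5.14 CPM at 24 h, and lay mostly in CD14, a monocyte receptor gene (log2 fold change -2.32 at 8 h and 0.08 at 24 h). CD68, the other of these markers that was tested, had 9, 3 and 6 counts untreated and 14, 15 and 9 at 8 h. It was not called at 8 h (1.14, edgeR adjusted p = 0.056) or at 24 h (0.57, edgeR adjusted p = 0.356). The part of CD14-expressing cells in the results on interferon-stimulated genes was not tested. Untreated replicate 1 stood above the untreated mean in 27 of 34 well-counted members, and without it the members called were 25 lower and 5 higher at 8 h and 1 lower and 23 higher at 24 h.

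Of the 39 members, 38 had enough counts to be tested. CMPK2, a mitochondrial nucleotide kinase gene beside RSAD2, had 6, 7 and 2 counts in untreated cells. It had 3, 0 and 2 after 8 h of TEPA, then 1, 7 and 4 after 24 h, and no fold is given for it. A further 4 tested members had fewer than 100 counts on average: IRF9 had 34 to 69, DDX58 54 to 112, TRIM22 4 to 26 and RSAD2 2 to 23 counts per library. TRIM22 had its highest counts at 24 h (12 to 26), with 4 to 13 untreated and 7 to 17 at 8 h, so all its values rest on few counts. The other 34 members had at least 100 counts on average, and their libraries varied little, with a median coefficient of variation of 5.52% in untreated cells, 4.62% at 8 h and 3.56% at 24 h. The largest, 33.6%, was that of OAS1 in untreated cells.

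After 8 h of TEPA most interferon-stimulated genes were lower than in untreated cells. At an adjusted p under 0.05 (edgeR's quasi-likelihood test with Benjamini-Hochberg adjustment over all 16556 genes), 27 of the 38 members fell (71.1%) and 3 rose (7.89%), whereas 24.5% of all genes tested fell and 25.2% rose. With a log2 fold change beyond 0.5 as well, 16 members fell and 1 rose (IRF9), against 7.67% and 10.1% of all genes. The 3 libraries at 8 h lay wholly below the 3 untreated ones for 27 members and wholly above for 3, where 28.6% and 29.2% of all genes were separated in this way. The median log2 fold change of the members was -0.45, with a range from -1.48 (MX2) to 0.88 (IRF9), beside -0.0013 for all genes tested.

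At 24 h the same list lay mostly above the untreated level. Here 2 members were lower (5.26%) and 23 higher (60.5%), against 26.8% and 25.7% of all genes tested. Beyond the limit of 0.5, 0 members were lower and 9 higher, against 8.46% and 10.2% of all genes. Groups were separated downwards for 3 members and upwards for 23, against 28.9% and 28.4% of all genes. The members' median was 0.26, from -0.37 (BST2) to 1.44 (TRIM22), beside 0.0023 for all genes. Both comparisons used the same untreated libraries.

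The difference between the times was tested directly. Between 8 h and 24 h, 31 of the 38 members rose (81.6%) and 1 fell (IRF9), against 26.0% and 28.8% of all genes tested. Beyond 0.5, 24 rose and 1 fell, against 10.4% and 10.8%. Libraries were separated upwards for 32 members and downwards for 1, against 29.6% and 32.4% of all genes. The median rise was 0.74 on the log2 scale, with a range of -0.89 (RSAD2, not called) to 1.78 (OAS1), beside a median of -0.016 for all genes.

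Taken member by member, the commonest course was a fall at 8 h followed by a level above untreated at 24 h. It was called for 16 members: IRF1, IFIH1, OAS1, OAS2, OAS3, IFIT1, IFIT2, HERC5, HERC6, MX1, ISG20, SAMD9, SAMD9L, PARP14, DTX3L and IFI6. Leaving out single libraries could remove the 24 h call of OAS1, IFIT1, ISG20 and IFI6, and the 8 h call of OAS3 and HERC5. Of all genes tested, 571 (3.45%) had both calls, and 104 (0.628%) had both beyond 0.5, as did IFIH1 and OAS1 alone among the members. Another 9 members fell at 8 h and were not called at 24 h, namely OASL, IFIT3, ISG15, MX2, PARP9, IFI27, IFI35, IFI44 and XAF1. UBE2L6 and BST2 were lower at both times, STAT2 and EIF2AK2 higher at both, and IRF9 higher at 8 h alone among its calls against untreated. IRF7, DHX58, USP18, TRIM22 and IFI44L were called only at 24 h, and DDX58, IFIT5 and RSAD2 at neither time.

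**Figure D1:**
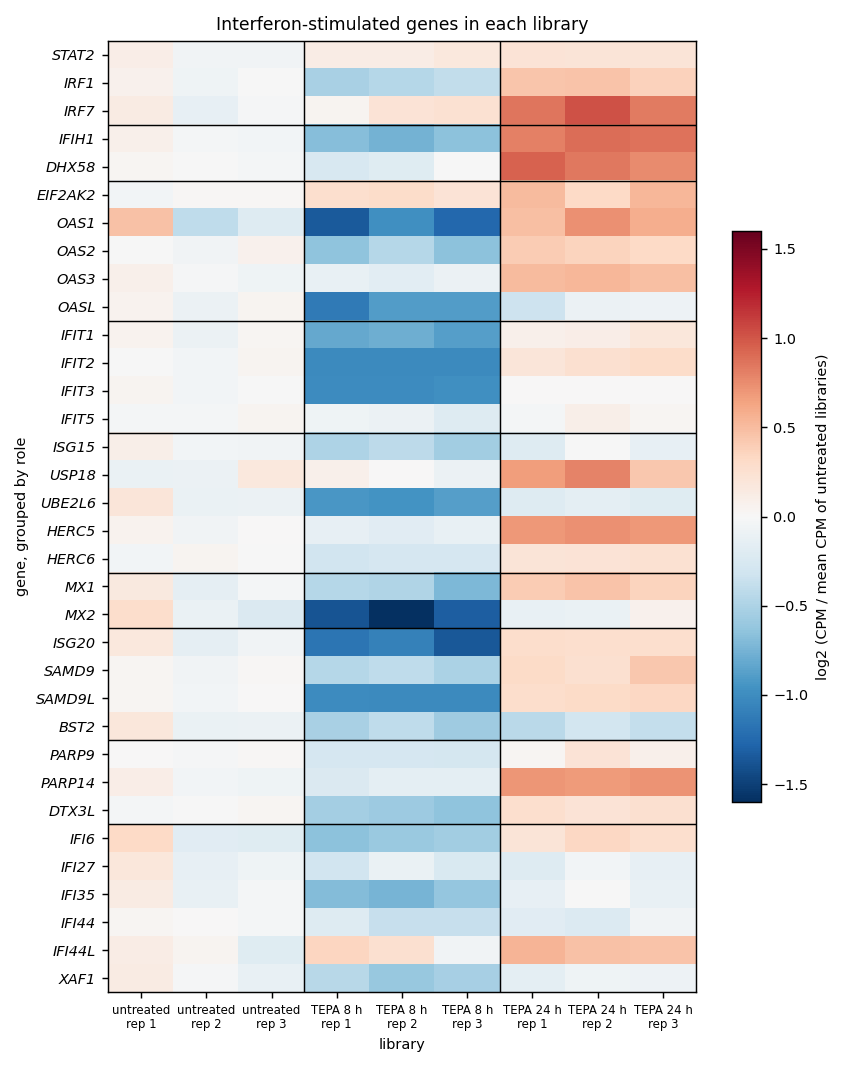
Level of the 34 interferon-stimulated genes with at least 100 counts on average (rows, grouped by role) in each of the 9 libraries (columns), as log2 of CPM over the mean of the 3 untreated libraries. The columns at 8 h are mostly blue (lower) and those at 24 h mostly red (higher), with library medians of -0.54 to -0.43 and 0.24 to 0.27.

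The map of levels by library shows that the course was shared by replicates. Over the 34 well-counted members, the median level relative to the untreated mean was 0.07, -0.06 and -0.03 on the log2 scale for untreated cells, -0.48, -0.43 and -0.54 after 8 h, then 0.24, 0.26 and 0.27 after 24 h. Summed over all members, the level was 1287, 1184 and 1212 CPM in untreated cells, 916, 928 and 914 CPM at 8 h and 1424, 1447 and 1450 CPM at 24 h, with no overlap between groups. The 16 members that fell beyond the limit at 8 h stood at 35.8% to 69.3% of the untreated mean then and at 88.2% to 181% at 24 h. At 24 h 10 of these 16 were higher than untreated, 5 were not called and 1 (UBE2L6) was lower, and all 16 had risen since 8 h. These 16 were picked by their 8 h values, so a low level then was set by that choice, which also favours a rise from 8 h.

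Compared per kilobase of transcript, untreated cells held ISG15 at the highest level of the list, 91.6 ± 5.36 CPM per kb (SD, n = 3). IFI27 followed at 66.8 ± 7.75 and IFIT3 at 47.2 ± 1.40 CPM per kb. BST2 at 45.5 ± 5.22, UBE2L6 at 42.7 ± 5.19 and IFI35 at 40.3 ± 3.57 CPM per kb came next, and neighbours from IFIT3 down to IFI35 differed by less than their spread. The RNA sensors and the OAS1 and MX genes were lower, with IFIH1 at 3.89 ± 0.194, MX1 at 2.86 ± 0.314, DHX58 at 2.62 ± 0.0658, MX2 at 1.91 ± 0.365 and OAS1 at 1.51 ± 0.508 CPM per kb. At 24 h ISG15 was still the highest, at 84.7 ± 6.29 CPM per kb, and IFIH1 had reached 7.05 ± 0.209 CPM per kb.

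**Figure D2:**
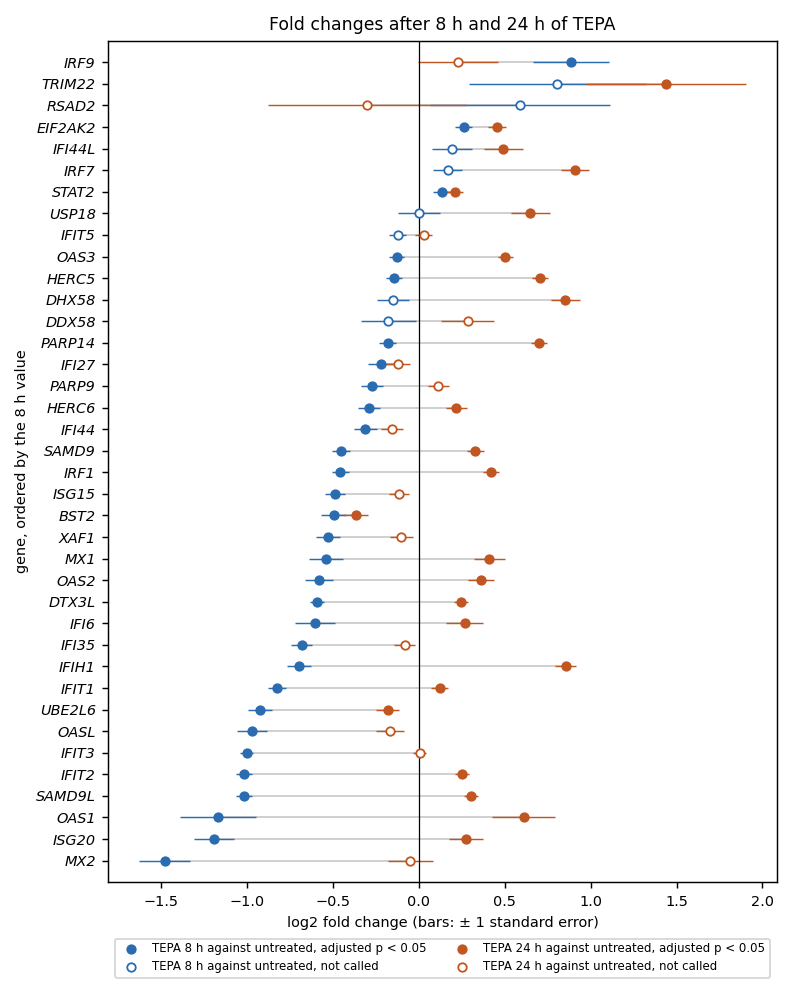
Log2 fold change (x axis) of each of the 38 tested interferon-stimulated genes (y axis, ordered by the 8 h value) after 8 h (blue) and 24 h (orange) against untreated cells, with bars of 1 standard error. Filled points passed an adjusted p under 0.05, and 27 of the blue ones lie left of 0 while 23 of the orange ones lie right of it.

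Among the transcription factors, IRF1 fell and then rose, and IRF7 rose only at 24 h. IRF1, which drives interferon-inducible promoters on its own, stood at 74.7, 68.3 and 71.3 CPM in untreated cells, 49.7, 52.0 and 54.6 CPM at 8 h and 96.8, 97.9 and 91.9 CPM at 24 h. The groups did not overlap, and its log2 fold changes were -0.46 (SE 0.05, edgeR adjusted p = 1.49e-06) at 8 h and 0.42 (SE 0.05, edgeR adjusted p = 1.70e-06) at 24 h. IRF7, the factor that amplifies interferon production, was at 11.6, 9.72 and 10.5 CPM untreated, 10.9, 12.3 and 12.5 CPM at 8 h and 19.2, 21.5 and 18.9 CPM at 24 h. Its 8 h libraries overlapped the untreated ones (0.17, SE 0.08, edgeR adjusted p = 0.112), though without untreated replicate 1 the value was 0.24 with an adjusted p of 0.033, and at 24 h it was 0.91 (SE 0.08, edgeR adjusted p = 1.74e-07). The ISGF3 subunits moved otherwise. STAT2 was at 37.5 to 41.8 CPM untreated, 42.1 to 43.9 CPM at 8 h and 44.9 to 45.4 CPM at 24 h, a rise of 0.13 (edgeR adjusted p = 0.0316) and 0.21 (edgeR adjusted p = 0.00177). The call on STAT2 at 8 h was lost without any one of untreated replicates 2 and 3, 8 h replicates 1, 2 and 3 and 24 h replicate 1 (0.10 to 0.14, adjusted p 0.0507 to 0.158), and with DESeq2 (adjusted p = 0.0531). IRF9 was at 0.744 to 0.933 CPM untreated, 1.15 to 1.88 CPM at 8 h and 0.834 to 1.12 CPM at 24 h, so that it was higher at 8 h only (0.88, SE 0.22, edgeR adjusted p = 0.00357). Its fall between 8 h and 24 h (-0.66, edgeR adjusted p = 0.0167) was lost without 8 h replicate 1, 8 h replicate 3 or 24 h replicate 2 (-0.61, -0.50 and -0.55, adjusted p 0.0571 to 0.098).

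Of the sensors of double-stranded RNA, IFIH1 fell at 8 h where DHX58 was not called, and both rose at 24 h. IFIH1 encodes MDA5, the sensor of long double-stranded RNA. It was at 14.7, 13.6 and 13.5 CPM in untreated cells, 8.72, 8.23 and 8.84 CPM at 8 h and 24.4, 25.9 and 25.4 CPM at 24 h. It fell at 8 h (-0.70, SE 0.07, edgeR adjusted p = 6.74e-07), reached 181% of the untreated level at 24 h (0.86, SE 0.06, edgeR adjusted p = 1.54e-08) and rose 2.93-fold between the times. DHX58, the regulator LGP2, was at 6.96, 6.76 and 6.62 CPM untreated, 5.67, 5.93 and 6.75 CPM at 8 h and 13.1, 12.2 and 11.4 CPM at 24 h. The 8 h libraries of DHX58 reached into the untreated range (-0.15, SE 0.09, edgeR adjusted p = 0.188), and its rise at 24 h was 0.85 (SE 0.08, edgeR adjusted p = 5.16e-07). DDX58, encoding RIG-I, was low at 1.35 to 2.55 CPM and was not called against untreated cells at either time, and its rise of 0.46 from 8 h to 24 h (edgeR adjusted p = 0.0211) was lost without 8 h replicate 1 (0.31, adjusted p = 0.110) or 24 h replicate 2 (0.41, adjusted p = 0.0743).

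The oligoadenylate synthetases are enzymes activated by double-stranded RNA that make 2′-5′ oligoadenylates, a signal for RNA decay. OAS1, OAS3 and OAS2 lie side by side on chromosome 12 (hg38 chr12:112905856-112933219, chr12:112938051-112976460 and chr12:112978395-113011723, all on the + strand), and all 3 fell at 8 h and rose at 24 h. OAS1 was at 3.41, 1.86 and 2.13 CPM in untreated cells, 0.975, 1.25 and 1.03 CPM at 8 h and 3.43, 4.10 and 3.70 CPM at 24 h. The wide untreated spread left untreated replicate 1 just below the lowest 24 h library, with all 8 h libraries below every other. Its log2 fold changes were -1.17 (SE 0.22, edgeR adjusted p = 0.000402) and 0.61 (SE 0.18, edgeR adjusted p = 0.0106), and the second was lost without untreated replicate 2 (0.43, adjusted p = 0.056) or 3 (0.52, adjusted p = 0.0505). OAS2 was at 9.81, 9.43 and 10.3 CPM untreated, 6.30, 7.19 and 6.26 CPM at 8 h and 13.0, 12.6 and 12.3 CPM at 24 h, and the groups did not overlap (-0.58, edgeR adjusted p = 2.46e-05, and 0.36, edgeR adjusted p = 0.000737). OAS3 was at 74.6 to 82.8, 69.7 to 73.2 and 109 to 113 CPM. Its small fall at 8 h (-0.13, edgeR adjusted p = 0.023) was lost without untreated replicate 1 (-0.09, adjusted p = 0.0903) or 8 h replicate 2 (-0.11, adjusted p = 0.0859), and its rise at 24 h was 0.51 (edgeR adjusted p = 9.84e-08). OASL, a relative without the synthetase activity that lies elsewhere on chromosome 12, was at 17.4, 15.7 and 17.3 CPM untreated, 7.67, 9.02 and 9.09 CPM at 8 h and 13.3, 15.8 and 15.8 CPM at 24 h. It fell to 51.1% of untreated (-0.97, SE 0.09, edgeR adjusted p = 3.64e-07) and its 24 h libraries overlapped the untreated ones (-0.17, SE 0.08, edgeR adjusted p = 0.102). EIF2AK2, the kinase PKR that halts translation on sensing double-stranded RNA, went the other way at 8 h, from 88.2 to 92.1 CPM untreated to 105 to 111 CPM at 8 h and 113 to 131 CPM at 24 h (0.26, edgeR adjusted p = 0.000482, and 0.46, edgeR adjusted p = 1.80e-06).

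The IFIT proteins bind foreign RNA caps and ends and block their translation. IFIT2, IFIT3, IFIT1 and IFIT5 form a row on chromosome 10 (hg38 chr10:89283694-89309271, chr10:89327307-89377473, chr10:89392546-89406487 and chr10:89414568-89421605, all on the + strand), and the first 3 fell to 49.5%, 50.02% and 56.4% of untreated at 8 h while IFIT5 did not pass the test. IFIT2 was at 52.7, 50.9 and 54.5 CPM in untreated cells, 26.1, 26.1 and 26.1 CPM at 8 h and 60.5, 63.2 and 64.8 CPM at 24 h. These groups were tight and did not overlap (-1.01, SE 0.05, edgeR adjusted p = 5.08e-10, and 0.25, SE 0.04, edgeR adjusted p = 0.000146). IFIT3 was at 116, 110 and 112 CPM untreated, 55.9, 56.1 and 57.2 CPM at 8 h and 113, 113 and 113 CPM at 24 h. IFIT3 thus stood at 50.02% of untreated at 8 h (-0.999, SE 0.04, edgeR adjusted p = 1.26e-10) and its 24 h libraries fell inside the untreated range (0.01, SE 0.04, edgeR adjusted p = 0.908). IFIT1 was at 51.4, 46.5 and 50.9 CPM untreated, 28.1, 28.8 and 27.0 CPM at 8 h and 52.6, 53.2 and 56.0 CPM at 24 h. Its fall was -0.82 (SE 0.05, edgeR adjusted p = 8.37e-09), and its 24 h call (0.12, SE 0.05, edgeR adjusted p = 0.0472) was lost on leaving out any one library but untreated replicate 1 (0.07 to 0.14, adjusted p 0.0585 to 0.243) and with DESeq2 (adjusted p = 0.0506). IFIT5 was at 45.5 to 48.0 CPM untreated, 40.1 to 44.3 CPM at 8 h and 45.4 to 49.3 CPM at 24 h. Its 8 h libraries lay below the untreated ones with a log2 fold change of -0.12 (SE 0.05, edgeR adjusted p = 0.0538), which passed the threshold without untreated replicate 1 or 2, 8 h replicate 1 or 24 h replicate 2 (-0.16 to -0.12, adjusted p 0.0329 to 0.0478). Its rise from 8 h to 24 h (0.15, edgeR adjusted p = 0.0173) was lost without 8 h replicate 3 or 24 h replicate 2 (0.12 each, adjusted p 0.0873 and 0.070).

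**Figure D3:**
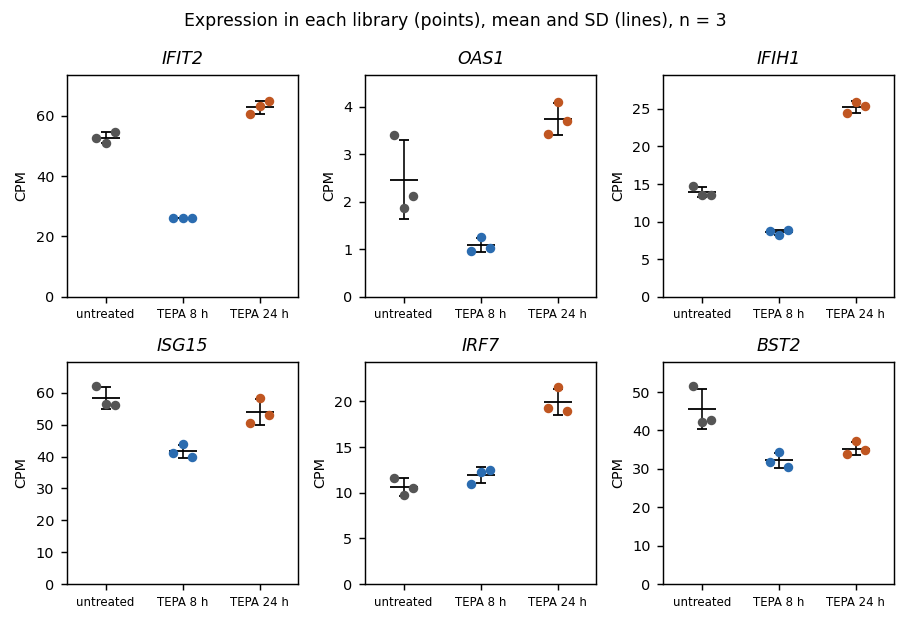
CPM of 6 interferon-stimulated genes (y axis, from 0) in the untreated, 8 h and 24 h libraries (points), with the mean and SD of 3 libraries (lines). IFIT2, OAS1 and IFIH1 dip at 8 h and end at 119%, 152% and 181% of untreated, ISG15 dips and ends at 92.5%, IRF7 rises at 24 h only, and BST2 stays at 77.5%.

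The ISG15 system attaches the ubiquitin-like protein ISG15 to other proteins. Its E2 enzyme UBE2L6 had the steepest fall of the group. UBE2L6 was at 59.4, 48.2 and 48.7 CPM in untreated cells, 27.3, 26.9 and 28.3 CPM at 8 h and 45.3, 46.9 and 45.7 CPM at 24 h. It fell to 52.7% at 8 h (-0.92, SE 0.07, edgeR adjusted p = 4.70e-08) and was slightly lower at 24 h (-0.18, SE 0.07, edgeR adjusted p = 0.0297), a call that was lost without untreated replicate 1 (-0.08, adjusted p = 0.163), 24 h replicate 1 (-0.17, adjusted p = 0.0904) or 24 h replicate 3 (-0.18, adjusted p = 0.0645). ISG15 itself was at 56.2 to 62.3 CPM untreated, 39.8 to 43.8 CPM at 8 h and 50.4 to 58.3 CPM at 24 h. Its log2 fold change was -0.49 at 8 h (edgeR adjusted p = 6.76e-06) and was not called at 24 h (-0.11, edgeR adjusted p = 0.116), except without 24 h replicate 2 (-0.17, adjusted p = 0.0213). HERC5, the main ISG15 ligase, and HERC6 lie next to each other on chromosome 4 (hg38 chr4:88457119-88506163 and chr4:88378739-88443097, + strand). HERC5 was at 30.6, 28.3 and 29.6 CPM untreated, 27.0, 26 and 27.1 CPM at 8 h and 47.7, 48.7 and 47.6 CPM at 24 h. Its rise at 24 h was 0.70 (SE 0.05, edgeR adjusted p = 6.65e-09), while its fall at 8 h (-0.14, SE 0.05, edgeR adjusted p = 0.0224) was lost without untreated replicate 1 (-0.12, adjusted p = 0.0687) or 8 h replicate 2 (-0.13, adjusted p = 0.0771). HERC6 moved from 12 to 12.7 CPM untreated to 9.95 to 10.2 CPM at 8 h and 14.2 to 14.5 CPM at 24 h (-0.29, edgeR adjusted p = 0.00166, and 0.22, edgeR adjusted p = 0.00723). USP18, the protease that removes ISG15 and restrains the receptor, was at 3.84 to 4.64, 3.86 to 4.35 and 5.56 to 7.16 CPM, with no difference detected at 8 h (0.00, SE 0.12, edgeR adjusted p = 0.994) and a rise of 0.65 at 24 h (edgeR adjusted p = 0.000188). USP18 has a near-identical copy, USP41, and the counting settings that the study lists name no option for reads shared by the pair, so its level is uncertain.

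The MX genes encode dynamin-like GTPases that trap viral nucleoproteins, and they neighbour each other on chromosome 21 (MX2 at hg38 chr21:41361999-41409393 and MX1 at chr21:41420020-41470071, + strand). MX2 had the largest fall of the list at 8 h, to 35.8% of untreated. It was at 7.92, 6.06 and 5.55 CPM in untreated cells, 2.5, 1.88 and 2.61 CPM at 8 h and 6.00, 6.07 and 6.84 CPM at 24 h. The 8 h libraries lay far below the rest (-1.48, SE 0.15, edgeR adjusted p = 1.04e-06), and the 24 h libraries lay within the untreated range (-0.05, SE 0.13, edgeR adjusted p = 0.784). MX1 was at 8.88, 7.16 and 7.78 CPM untreated, 5.80, 5.67 and 4.84 CPM at 8 h and 10.5, 10.9 and 10.1 CPM at 24 h. Unlike MX2, it exceeded every untreated library at 24 h (0.41, SE 0.09, edgeR adjusted p = 0.00138) after a smaller fall at 8 h (-0.54, SE 0.10, edgeR adjusted p = 0.000324).

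Of the other restriction factors, ISG20, SAMD9L and SAMD9 followed the fall and rise, whereas BST2 stayed low. ISG20, an RNA exonuclease, was at 6.19, 4.99 and 5.30 CPM in untreated cells, 2.45, 2.59 and 2.15 CPM at 8 h and 6.67, 6.6 and 6.62 CPM at 24 h. Its fall to 43.6% (-1.19, SE 0.12, edgeR adjusted p = 6.97e-07) was clear of the spread. Its 24 h value (0.28, SE 0.10, edgeR adjusted p = 0.0307) lost the call without untreated replicate 2 or 3 or any 24 h replicate (0.21 to 0.28, adjusted p 0.0614 to 0.132) and with DESeq2 (adjusted p = 0.0564). SAMD9L and SAMD9, which restrict translation in infected cells, lie side by side on chromosome 7 (hg38 chr7:93130056-93148385 and chr7:93099513-93118023, - strand). SAMD9L was at 41.9, 39.5 and 41.2 CPM untreated, 20.4, 20.1 and 20.1 CPM at 8 h and 49.7, 50.4 and 51.3 CPM at 24 h (-1.01, SE 0.05, edgeR adjusted p = 5.08e-10, and 0.31, SE 0.04, edgeR adjusted p = 2.24e-05). SAMD9 was at 63.9, 59.8 and 63.3 CPM untreated, 45.3, 47.2 and 44 CPM at 8 h and 76.9, 74.2 and 83.9 CPM at 24 h (-0.45, SE 0.05, edgeR adjusted p = 3.01e-06, and 0.33, SE 0.05, edgeR adjusted p = 4.09e-05). The fall of SAMD9L thus left it at 49.5% of untreated and that of SAMD9 at 73.0%, and both ended above every untreated library. BST2, or tetherin, which holds budding virus at the cell surface, was at 42.2 to 51.6 CPM untreated, 30.6 to 34.4 CPM at 8 h and 33.8 to 37.2 CPM at 24 h. It was lower at both times (-0.49, edgeR adjusted p = 3.72e-05, and -0.37, edgeR adjusted p = 0.00043), and the difference between the times (0.13, edgeR adjusted p = 0.152) passed the threshold only without untreated replicate 1 (0.13, adjusted p = 0.0457) or with the 24 h and 8 h groups fitted alone (0.15, adjusted p = 0.0269). TRIM22, a ubiquitin ligase, had 13, 4 and 4 counts untreated, 11, 17 and 7 at 8 h and 26, 24 and 12 at 24 h. Its groups overlapped, and the rise called at 24 h (1.44, SE 0.47, edgeR adjusted p = 0.0165) was lost without untreated replicate 2 or 3 or 24 h replicate 1 or 2 (1.08 to 1.37, adjusted p 0.0556 to 0.0812) and was 2.29 (adjusted p = 0.00117) without untreated replicate 1, where the 8 h value also passed (1.66, adjusted p = 0.023, against 0.81 and 0.208 with it). RSAD2, encoding viperin, had 11, 10 and 12 counts untreated, 23, 9 and 15 at 8 h and 8, 2 and 18 at 24 h, and no difference was detectable at this depth, although leaving out 24 h replicate 3 gave a fall from 8 h to 24 h (-1.92, adjusted p = 0.00904, against -0.89 and 0.179 with it).

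PARP9, DTX3L and PARP14 lie together on chromosome 3 (hg38 chr3:122527924-122564577 on the - strand, and chr3:122564338-122575203 and chr3:122680839-122730840 on the + strand). PARP9 and DTX3L form a complex of an ADP-ribosylation factor with a ubiquitin ligase, and their ends overlap on opposite strands, which the strand-aware counting kept apart. DTX3L was at 64.8, 66 and 67.3 CPM in untreated cells, 45.2, 44 and 42.2 CPM at 8 h and 79.4, 76.6 and 78.8 CPM at 24 h. It fell and rose without overlap (-0.59, SE 0.04, edgeR adjusted p = 2.67e-08, and 0.25, SE 0.04, edgeR adjusted p = 9.34e-05). PARP14, a mono-ADP-ribosyltransferase, was at 56.1, 50.5 and 49.96 CPM untreated, 44.4, 46.8 and 47.0 CPM at 8 h and 85.0, 83.4 and 86.1 CPM at 24 h. Its fall was small (-0.18, SE 0.05, edgeR adjusted p = 0.00629) and its rise, to 163% of untreated, was the larger change (0.70, SE 0.05, edgeR adjusted p = 8.61e-09). PARP9 was at 18 to 18.5, 15.1 to 15.2 and 18.7 to 21.3 CPM, lower at 8 h (-0.27, edgeR adjusted p = 0.00196) and not called at 24 h (0.11, edgeR adjusted p = 0.130).

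Of the 6 remaining interferon-inducible proteins, 5 fell at 8 h (83.3%), against 24.5% of all genes tested. At 24 h IFI27, IFI35, IFI44 and XAF1 were not called against untreated cells. Of these, only IFI35 and XAF1 were called higher than at 8 h. IFI6, a mitochondrial protein that opposes apoptosis, and IFI44L were called higher at 24 h. IFI6 was at 13.7, 9.70 and 9.64 CPM in untreated cells, 6.97, 7.27 and 7.46 CPM at 8 h and 12.7, 13.8 and 13.2 CPM at 24 h. Untreated replicate 1 lay inside its 24 h range. IFI6 fell by 0.60 (SE 0.12, edgeR adjusted p = 0.000482), and its 24 h value of 0.27 (SE 0.11, edgeR adjusted p = 0.0472) was 0.45 (adjusted p = 7.21e-05) without untreated replicate 1 and lost the call without any one of the other 8 libraries (0.18 to 0.30, adjusted p 0.058 to 0.214). IFI35 went from 43.9 to 52.2 CPM untreated to 28.5 to 31.1 CPM at 8 h (-0.68, edgeR adjusted p = 4.39e-07) and 43.6 to 47.6 CPM at 24 h (-0.08, edgeR adjusted p = 0.292). XAF1, a partner of the apoptosis inhibitor XIAP, went from 25.5 to 30.2 CPM to 18.2 to 20.3 CPM (-0.53, edgeR adjusted p = 1.06e-05) and 24.9 to 26.4 CPM (-0.10, edgeR adjusted p = 0.216). The 24 h libraries of both overlapped the untreated ones. IFI44 was at 22 to 23, 17.5 to 19.5 and 19.3 to 21.7 CPM, lower at 8 h (-0.31, edgeR adjusted p = 0.000959), with a 24 h value (-0.15, edgeR adjusted p = 0.0523) that passed without 8 h replicate 1 (-0.16, adjusted p = 0.0401) or 24 h replicate 3 (-0.20, adjusted p = 0.0216). The rise of IFI44 from 8 h to 24 h (0.15, edgeR adjusted p = 0.056) passed with RLE or upper-quartile factors, a filter of 10 counts in every library or the 24 h and 8 h groups alone, and without untreated replicate 1, 8 h replicate 1 or 24 h replicate 2 (0.15 to 0.21, adjusted p 0.0177 to 0.0468). IFI27 was at 44.3 to 54.8, 39.1 to 44.9 and 42.1 to 47.1 CPM. Its groups overlapped and its 8 h call (-0.22, edgeR adjusted p = 0.0226) was lost without untreated replicate 1 (-0.12, adjusted p = 0.110), 8 h replicate 1 (-0.18, adjusted p = 0.0919) or 8 h replicate 3 (-0.21, adjusted p = 0.066). The 24 h value of IFI27 (-0.12, edgeR adjusted p = 0.182) passed without untreated replicate 2 (-0.18, adjusted p = 0.0484). Its difference between 8 h and 24 h was not called (0.10, edgeR adjusted p = 0.284). IFI44L, the neighbour of IFI44 on chromosome 1, did not fall. It was at 4.06 to 5.04 CPM untreated, 4.46 to 5.87 CPM at 8 h (0.20, edgeR adjusted p = 0.178) and 6.34 to 6.73 CPM at 24 h (0.49, edgeR adjusted p = 0.00165), and its 8 h value passed without 8 h replicate 3 (0.30, adjusted p = 0.0495).

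**Figure D4:**
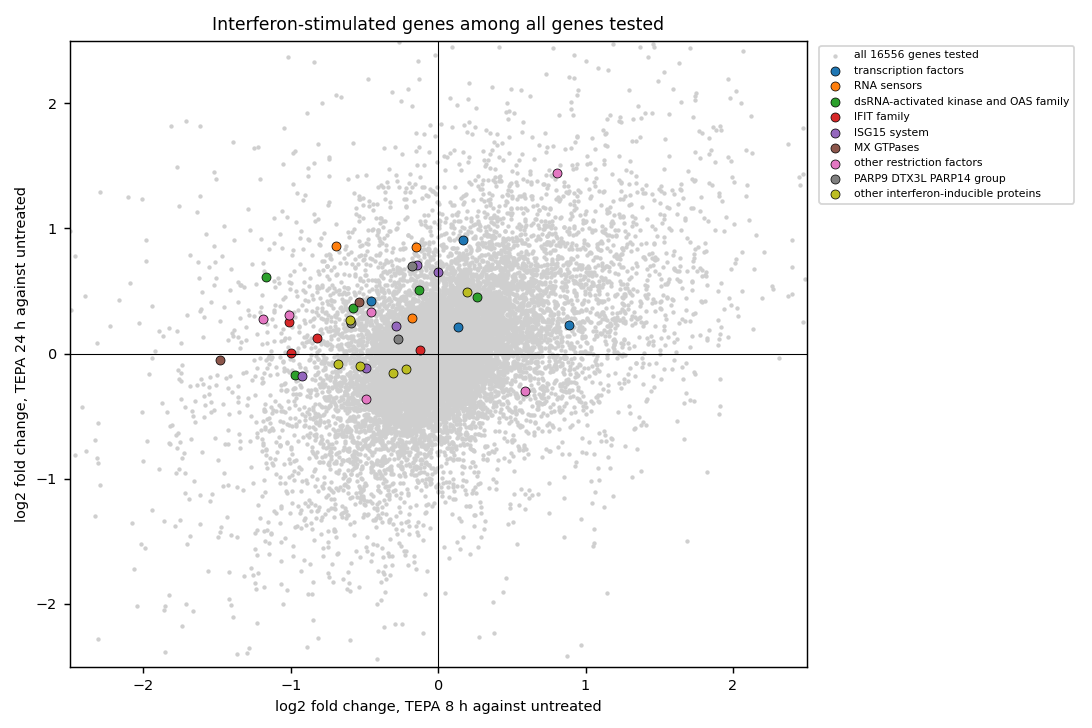
Log2 fold change at 24 h (y axis) against that at 8 h (x axis) for all 16556 genes tested (grey) and the 38 tested interferon-stimulated genes (coloured by role). Genes beyond 2.5 on either axis lie outside the plot. Most coloured points sit in the upper left of the plot (below 0 on the x axis, above 0 on the y axis), and the axes share the untreated libraries.

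The plot of members among all genes places most of the list left of and above the crossing of the axes. IFIH1 and OAS1 were the members with both changes beyond 0.5 and both calls, the pattern that 0.628% of all genes had. RSAD2 lay right of and below it, with no call at either time.

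The other genes of the interferon pathway were taken from 5 lists of 89 genes in all, of which 73 could be tested. At 8 h 40 of these fell (54.8%) and 13 rose (17.8%), against 24.5% and 25.2% of all genes tested. At 24 h 11 were lower (15.1%) and 29 higher (39.7%), against 26.8% and 25.7%, and between the times 9 fell (12.3%) and 47 rose (64.4%), against 28.8% and 26.0%. Their median log2 fold changes were -0.19 at 8 h and 0.11 at 24 h. None of the 10 interferon ligand genes reached the filter. IFNB1, IFNG and the listed alpha genes IFNA1, IFNA2 and IFNA5 had 0 counts in all 9 libraries, as did IFNE, IFNK and IFNL2, and IFNL1 and IFNL3 had 1 count each, in 1 library at 24 h. A count of 0 allows up to 3 counts per library, so low transcription of these genes was not detectable at this depth.

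Of 10 receptor and JAK-STAT genes, 6 fell (60%) and 2 rose (20%) at 8 h, against 24.5% and 25.2% of all genes tested. At 24 h 1 was lower (10%) and 2 higher (20%), against 26.8% and 25.7%. Between the times 1 fell (10%) and 8 rose (80%), against 28.8% and 26.0% of all genes. Changes of these 10 genes were mostly small. The largest at 8 h was the rise of IFNLR1 (0.99, edgeR adjusted p = 0.0375), which rests on 4 to 16 counts per library. JAK1 was at 204, 193 and 192 CPM untreated, 162, 166 and 164 CPM at 8 h and 195, 199 and 193 CPM at 24 h. It fell at 8 h and was not called at 24 h (-0.26, edgeR adjusted p = 2.13e-05, and -0.01, edgeR adjusted p = 0.886), while its partner TYK2 was higher at 8 h (0.33, edgeR adjusted p = 1.59e-06) and slightly so at 24 h (0.10, edgeR adjusted p = 0.0257). The receptor chain IFNAR1 changed by -0.13 (edgeR adjusted p = 0.0253) and 0.16 (edgeR adjusted p = 0.00455) and IFNAR2 by -0.29 (edgeR adjusted p = 0.00471) and -0.06 (edgeR adjusted p = 0.493). The call on IFNAR1 at 8 h was lost without untreated replicate 3 (-0.12, adjusted p = 0.0753), 8 h replicate 2 (-0.14, adjusted p = 0.0509) or 8 h replicate 3 (-0.11, adjusted p = 0.0972), and that on TYK2 at 24 h without untreated replicate 3 (0.09, adjusted p = 0.112), 24 h replicate 1 (0.11, adjusted p = 0.0578) or 24 h replicate 2 (0.09, adjusted p = 0.057). IFNGR2, a chain of the interferon gamma receptor, had the largest fall of the called receptors, from 81.4, 70.0 and 73.1 CPM to 47.0, 45.2 and 47.2 CPM at 8 h, and stood at 64.0, 69.0 and 65.1 CPM at 24 h (-0.69, edgeR adjusted p = 8.43e-08, and -0.18, edgeR adjusted p = 0.0091). Without untreated replicate 1 its 24 h value was -0.12 (adjusted p = 0.0373).

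Among 12 tested sensing and induction genes, 6 fell (50%) and 2 rose (16.7%) at 8 h, against 24.5% and 25.2% of all genes tested. At 24 h 4 were lower (33.3%) and 3 higher (25%), near the 26.8% and 25.7% of all genes tested. STING1, the adaptor of cytosolic DNA sensing, differed from the members in its course, at 40.1, 30.3 and 31.7 CPM untreated, 27.2, 28.0 and 28.1 CPM at 8 h and 15.4, 17.8 and 14.6 CPM at 24 h. It was lowest at 24 h (-1.09, SE 0.09, edgeR adjusted p = 1.20e-07), and its 8 h call (-0.29, edgeR adjusted p = 0.014) was lost without untreated replicate 1 (-0.16, adjusted p = 0.0648). TLR3, an endosomal sensor of double-stranded RNA, fell and rose (-0.78, edgeR adjusted p = 5.25e-06, and 0.28, edgeR adjusted p = 0.0119), the rise being lost without untreated replicate 3 (0.22, adjusted p = 0.071) or 24 h replicate 3 (0.22, adjusted p = 0.0619). IKBKE, a kinase that activates IRF3, was lower at both times (-0.70, edgeR adjusted p = 1.12e-06, and -0.42, edgeR adjusted p = 0.000117), and IRF3 itself was higher at both (0.20, edgeR adjusted p = 0.00113, and 0.34, edgeR adjusted p = 6.07e-06).

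Of 10 tested negative regulators, 5 fell (50%) and 1 rose (10%) at 8 h, against 24.5% and 25.2% of all genes tested. At 24 h 1 was lower (10%) and 5 higher (50%), against 26.8% and 25.7%. SOCS1, the feedback inhibitor of JAK kinases, was at 3.73, 4.12 and 3.30 CPM untreated, 1.40, 1.91 and 1.80 CPM at 8 h and 3.88, 3.78 and 3.64 CPM at 24 h. It fell to 45.8% (-1.13, SE 0.14, edgeR adjusted p = 8.70e-06), and at 24 h its libraries lay within the untreated range (0.02, SE 0.13, edgeR adjusted p = 0.910). TRIM21, an antibody receptor and ubiquitin ligase, fell by 0.25 (edgeR adjusted p = 0.00177) and was 0.34 higher on the log2 scale at 24 h (edgeR adjusted p = 9.36e-05).

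Of 41 tested other interferon-inducible genes, 23 fell (56.1%) and 8 rose (19.5%) at 8 h, against 24.5% and 25.2% of all genes tested. At 24 h 5 were lower (12.2%) and 19 higher (46.3%), against 26.8% and 25.7%. Between the times 4 fell (9.76%) and 27 rose (65.9%), against 28.8% and 26.0%. The medians of the 41 genes were -0.20, 0.18 and 0.29. Among those with at least 100 counts on average, the widest swings between the times were those of GBP4, EPSTI1 and GBP2. Below that limit, TNFSF10 (4 to 70 counts per library) rose 9.44-fold and RTP4 (7 to 49 counts) 3.82-fold between the times, both picked out after their values were seen. GBP4, a guanylate-binding protein, was at 10.5, 7.66 and 8.06 CPM untreated, 4.10, 3.76 and 4.71 CPM at 8 h and 25.2, 24.9 and 24.6 CPM at 24 h (-1.05, SE 0.12, edgeR adjusted p = 2.46e-06, and 1.52, SE 0.10, edgeR adjusted p = 4.52e-09). EPSTI1 was at 7.52, 6.55 and 8.11 CPM untreated, 3.95, 4.08 and 3.78 CPM at 8 h and 17.3, 18.6 and 17.3 CPM at 24 h (-0.90, SE 0.10, edgeR adjusted p = 1.78e-06, and 1.26, SE 0.08, edgeR adjusted p = 5.51e-09). These 2 genes rose 5.95-fold and 4.49-fold between the times, more than any of the 38 members. GBP2, another guanylate-binding protein, was at 51.5, 30.0 and 34.5 CPM untreated, 15.1, 18.1 and 15.8 CPM at 8 h and 54.9, 57.6 and 57.1 CPM at 24 h, with untreated replicate 1 near the 24 h level (-1.24, SE 0.14, edgeR adjusted p = 4.10e-06, and 0.55, SE 0.13, edgeR adjusted p = 0.0021). APOBEC3G, a cytidine deaminase that restricts retroviruses, fell and rose (-0.78, edgeR adjusted p = 0.00121, and 0.67, edgeR adjusted p = 0.00123), as did the helicase gene DDX60 (-0.52, edgeR adjusted p = 0.000268, and 0.33, edgeR adjusted p = 0.00476). NMI fell by 0.37 (edgeR adjusted p = 0.000652) and was 0.20 higher on the log2 scale at 24 h (edgeR adjusted p = 0.0258), a call lost without untreated replicate 3 (0.15, adjusted p = 0.132), 24 h replicate 1 (0.16, adjusted p = 0.120) or 24 h replicate 3 (0.20, adjusted p = 0.0556). SAMHD1, a nucleotide hydrolase, rose at 24 h (0.61, edgeR adjusted p = 1.07e-09) after no call at 8 h (-0.08, edgeR adjusted p = 0.0735). LY6E was lower at both times (-0.57, edgeR adjusted p = 8.63e-07, and -0.44, edgeR adjusted p = 8.53e-06). IFITM2, a membrane protein that blocks viral fusion, fell (-0.52, edgeR adjusted p = 1.46e-05) and was not called at 24 h (0.07, edgeR adjusted p = 0.428), except without untreated replicate 1 (0.15, adjusted p = 0.0349).

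**Figure D5:**
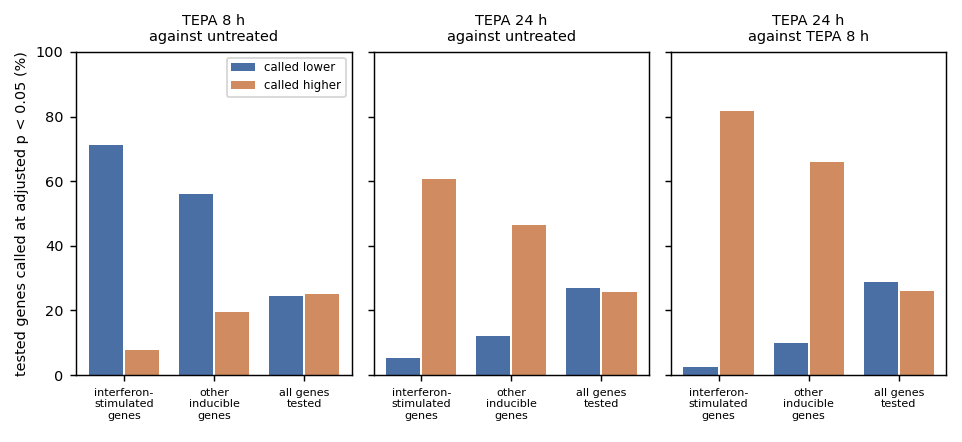
Share of tested genes called lower (blue) and higher (orange) at an adjusted p under 0.05, in % (y axis), for the 38 interferon-stimulated genes, the 41 other interferon-inducible genes and all 16556 genes tested, in the 3 comparisons. The interferon-stimulated genes reach 71.1% lower at 8 h, 60.5% higher at 24 h and 81.6% higher from 8 h to 24 h, where all genes tested stand at 24.5%, 25.7% and 26.0%.

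The plot of shares called sets the interferon-stimulated genes beside the second inducible list. In that list 56.1% fell at 8 h and 12.2% were lower at 24 h, against 24.5% and 26.8% of all genes tested. Besides the ligands, ZBP1, CXCL10, CXCL11, LAMP3, IFI30 and PTPN6 of the pathway lists had too few counts to be tested.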

How the data were processed

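Total RNA of MDA-MB-231 cells was made into stranded mRNA libraries and read in pairs. The authors used FastQC for read quality, HISAT2 for alignment to hg38 and featureCounts with the GRCh38 annotation for strand-aware counting of read pairs in exons, and they deposited the raw counts per gene name, not normalized. Versions of FastQC, HISAT2 and featureCounts are not given in the sources used here. All 9 columns were used.

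From the counts, edgeR 4.0.16 in R 4.3.3 kept 16556 genes by filterByExpr (minimum count 10), which held 99.9% of counts, scaled libraries by TMM (factors 0.978 to 1.04) and fitted all 9 libraries in 1 quasi-likelihood model. CPM values use the scaled library totals. P-values were two-sided and adjusted over these genes by the Benjamini-Hochberg method. Each standard error was obtained from the fold change and its F value. The biological coefficient of variation was 0.0481, and no replicate pair differed by as little as sampling noise (chi-square per degree of freedom 2.40 to 21.4). Gene positions and transcript lengths came from GENCODE v44. Values per library are given for members called beyond 0.5 in any comparison with at least 100 counts on average, largest first (20 of 25), and for pathway genes by the same rule (15 of 17) and for signalling genes set by name, with some shortened to fold changes and some genes not reported here. Members and lists were chosen with earlier results of these data known. The script was tested on simulated data. Alternatives were DESeq2 1.42.0, upper-quartile or RLE scaling, other filters, other call rules, only the groups compared, a replicate block and leaving out each library.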

Additional observations from a re-analysis of the deposited data

Results flagged for a closer look

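The level at 24 h differed from that at 8 h, by edgeR's quasi-likelihood test of 24 h against 8 h, for 32 of the 38 interferon-stimulated genes tested (adjusted p 1.45e-11 to 0.0334). Because 1 untreated group served both times, this test cannot set the effect of TEPA apart from time in culture. The differences below are log2 fold changes of 24 h over 8 h. The difference was above 1 for OAS1 (1.78), IFIH1 (1.55), ISG20 (1.47), MX2 (1.43), SAMD9L (1.32), IFIT2 (1.27), IFIT3 (1.005) and DHX58 (1.003). It was 0.95 for MX1, 0.95 for IFIT1, 0.94 for OAS2, 0.88 for PARP14, 0.88 for IRF1, 0.87 for IFI6, 0.85 for HERC5, 0.84 for DTX3L and 0.80 for OASL. It was 0.78 for SAMD9, 0.74 for UBE2L6, 0.74 for IRF7, 0.65 for USP18, 0.63 for OAS3, 0.60 for IFI35 and 0.51 for HERC6. Smaller differences were found for DDX58 (0.46), XAF1 (0.43), PARP9 (0.38), ISG15 (0.37), IFI44L (0.30), EIF2AK2 (0.19) and IFIT5 (0.15). IRF9 alone differed the other way (-0.66). The difference for IFI44L was lost without 8 h replicate 3 (0.20, adjusted p = 0.159) or any one 24 h replicate (0.27 to 0.31, adjusted p 0.0502 to 0.104). Those for IRF9 (-0.61 to -0.50), DDX58 (0.31 and 0.41) and IFIT5 (0.12 each) were lost without the single libraries named for them above. No group was large enough to test single libraries for standing apart.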

How the results depend on the processing

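The direction of each member's log2 fold change was kept wherever it was called, under every alternative tried. Without any call change were 30 of 38 members at 8 h, 29 at 24 h and 30 between the times. With a log2 limit of 0.5 the members called were 16 lower and 1 higher at 8 h and 0 lower and 9 higher at 24 h, and the pathway genes 14 lower and 1 higher at 8 h, 1 and 8 at 24 h, and 1 and 19 between the times. Upper-quartile factors, or only the 2 groups compared, left 1 member lower at 24 h in place of 2. Leaving out 1 library gave 25 to 28 members lower and 2 to 5 higher at 8 h, 1 to 3 and 18 to 23 at 24 h, and 0 to 2 and 29 to 33 between the times. For the pathway genes the ranges were 36 to 42 and 10 to 13, 10 to 12 and 25 to 36, and 7 to 9 and 42 to 48. The member counts that moved by over 1.5 times were those higher at 8 h without untreated replicate 1 (5), lower at 24 h without untreated replicate 1 or 24 h replicate 1 (1 each), and lower between the times without 8 h replicate 1 or 3 or 24 h replicate 2 (0 each, from IRF9) or without 24 h replicate 3 (2, with RSAD2). Other scalings moved the median of all genes by less than 0.03. Replicate numbers did not pair the libraries (same-number correlations -0.080 to 0.038). With the replicate number as a block, 27 members were lower and 3 higher at 8 h, 2 and 21 at 24 h, and 1 and 31 between the times, where IFIT1 (0.12, adjusted p = 0.071) and IFI6 (0.27, adjusted p = 0.0606) lost their 24 h calls. Depth limited CMPK2, RSAD2, TRIM22 and the ligands.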
